A study of Arabidopsis thaliana with 4 samples.

Results

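The features described here are the 3166 measured spots of plates TA67 to TA99 of a spotted tiling array, out of 21727 measured spots in all (14.6%). They were chosen by the plate and well code in their identifier, TA followed by a plate number from 67 to 99, a row letter and a column number, with a value on all 4 arrays. Of the 3168 spots listed under these codes, 2 were empty. The limits of the block had been drawn from the share of high ratios per plate, so every ratio below is a description of the block and carries no test. At the lower limit, plates TA66 and TA67 had the same share of high ratios, 8.33% each, so this share showed no step at the border. The block ends with TA99, at 13.5%, and plate TB00, which follows in the alphabet of the codes, had 3.13%.

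The arrays measured H3K9me2, histone H3 dimethylated on lysine 9, in Col-0 seedlings of Arabidopsis thaliana, taken as whole plants. The plants were grown untreated for 11 days in liquid half-strength MS medium at 22 °C with a 16 h photoperiod. Chromatin was immunoprecipitated with an Upstate antibody against H3K9me2, and the precipitated DNA (IP) was hybridised with input DNA in the other dye. There was a single group, with 2 preparations (labelled I and II, here replicates 1 and 2), each on 2 arrays with Cy3 and Cy5 exchanged. The labels do not give the cultures behind the preparations, and the spread between them may be technical. A whole seedling mixes many cell types, and a high ratio in few cells cannot be told apart from a moderate ratio in many.

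In Arabidopsis, H3K9me2 is written mainly by the SUVH methyltransferases, among them KRYPTONITE, and is bound by the DNA methyltransferase CHROMOMETHYLASE 3, so that the mark and non-CG DNA methylation reinforce each other. It is best known from transposons and repeats, in the dense heterochromatin around the centromeres and in small islands within the gene-rich chromosome arms. Whether any feature of this block lies on a transposon, a gene or an arm could not be read from the files, since the identifiers carry no position and none of the 3166 matched a locus tag, symbol or synonym of the RefSeq gene table (0 matches). Features are therefore located by plate, row and column.

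The deposited value of a feature is a log-scale ratio of the IP and input channels, with the log base and the direction unstated. The paired dye-swap arrays of a preparation held identical values, so each replicate gave 1 value per feature (n = 2). Identical values under exchanged dyes do not settle the sign, and features are called higher or lower, not enriched or depleted. The deposited medians over the whole array were -1.39 in replicate 1 and -1.15 in replicate 2, and each replicate was centred on its own. All values below are units above or below that array median. A high-ratio feature lay at least 1 unit above it in both replicates.

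Most of the block lay at the low level of the array, with high ratios scattered through it. In replicate 1 the members ranged from -1.23 to 4.08 units with a median of -0.03, and in replicate 2 from -1.55 to 3.17 units with a median of -0.06. High-ratio features numbered 272, or 8.59% of the members (95% Wilson interval 7.66 to 9.62, which covers counting error only and treats neighbouring features as independent). Over the whole array the share was 19.2%. By the mean of both replicates, 2511 members (79.3%) lay under 0.5 units, 489 (15.4%) between 0.5 and 1.5 units and 166 (5.24%) at 1.5 units or more, against 72.7%, 10.9% and 16.4% over the whole array. The block thus held more intermediate than high features, the reverse of the array as a whole. High-ratio features are a different class, which overlaps the intermediate one. Set against them, intermediate features were the more numerous in the block (15.4% against 8.59%) and in other island-bearing plates. Intermediate and high-ratio shares were 9.99% and 7.17% in TA01 to TA20 and 12.2% and 8.14% in TB00 to TB25. In TB26 to TC13 they were 4.85% and 1.75%. Only 1 member, TA89B06, lay at least 1 unit below the median in both replicates, against 15 features (0.069%) over the array.

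**Figure D1:**
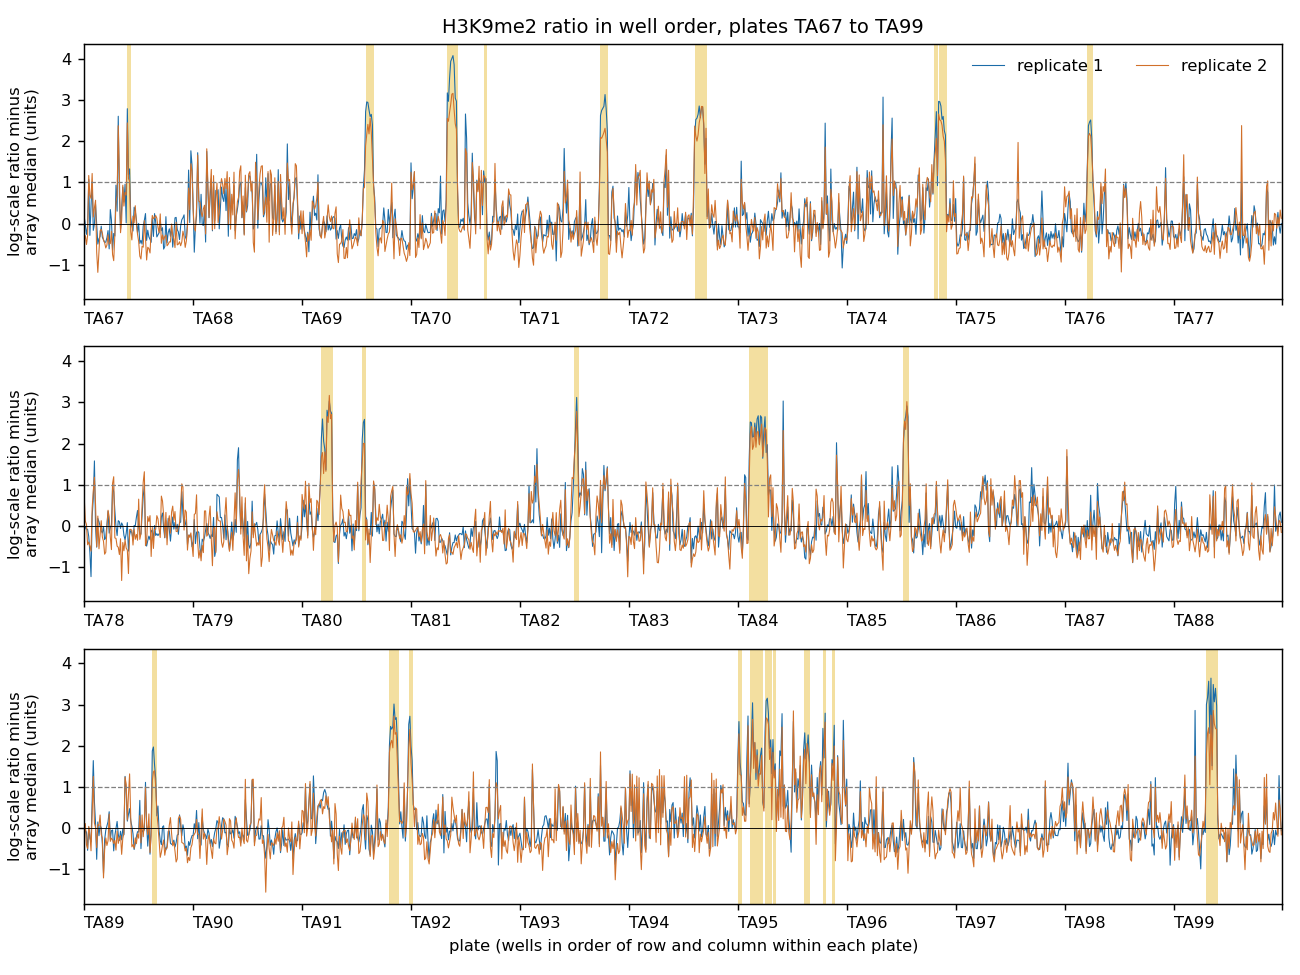
Ratio of every member in well order, as units above the array median, with 11 plates per panel. The blue line is replicate 1 and the orange line replicate 2, yellow bands mark the 25 islands, and the dashed line is the limit of 1 unit. Isolated peaks of 2 to 4 units stand out of a base near 0. TA95 is raised over most of its length, and TA68 mixes raised and low wells.

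Part of the high-ratio features lay in islands, here runs of at least 3 in consecutive wells. There were 25 islands, which held 156 of the 272 high-ratio features (57.4%). A further 30 features (11.0%) formed 15 pairs, and 86 (31.6%) stood alone. Over the whole array, where high-ratio features are denser, 88.0% lay in islands and 8.18% stood alone. The share in islands was 64.96% in TA01 to TA20, 63.05% in TB00 to TB25 and 53.06% in TB26 to TC13. The islands of the block had a median of 5 wells (7 over the whole array) and a maximum of 17. The medians were 7, 5 and 5 wells in TA01 to TA20, TB00 to TB25 and TB26 to TC13. The longest islands there had 21, 18 and 9 wells. Of the islands of the block, 14 had 5 wells or more. The runs differed in level as well as in length. Island wells had a median of 2.26 units, wells of pairs 1.32 units and lone features 1.26 units.

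The tallest island ran from TA70C09 to TA70D05, 9 wells with a mean of 3.51 units in replicate 1 and 2.71 in replicate 2. It had the shape of a dome. Its ratio rose from 2.86 ± 0.44 units (SD, n = 2) at TA70C09 to 3.62 ± 0.65 at TA70D02 and fell back to 2.63 ± 0.48 at TA70D05. The wells just outside lay at 0.51 and 0.87 units, in the intermediate range, and the next ones out, TA70C07 and TA70D07, at -0.12 and -0.08. Most of the change from base to island thus took place between adjacent wells. The 3 highest members of the block, TA70D02, TA70D01 and TA70C12, were all in this island. TA70D02 stood at 4.08 units in replicate 1 and 3.16 in replicate 2, TA70D01 at 4.01 and 3.14, and TA70C12 at 3.94 and 2.89.

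The longest island, TA84A11 to TA84C03, was by contrast a plateau. Its 17 wells had means of 2.27 units in replicate 1 and 2.06 in replicate 2, and after a first well at 1.33 units they ranged from 1.66 to 2.55 units in the mean of both replicates. The well before it lay at -0.38 units and the well after it at 0.48. TA72E11 to TA72F09, with 11 wells, resembled it in level, at 2.44 and 2.30 units. The replicates lay only 0.13 units apart there.

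TA99C06 to TA99D03, with 10 wells, had the second highest mean, 3.01 units in replicate 1 and 2.20 in replicate 2, and was notched. TA99C10 reached 3.64 and 2.74 units, whereas TA99C09 beside it lay at 2.30 and 1.06 and TA99C11 at 1.52 and 1.42. Both replicates showed the notches. TA85E03 to TA85E07, with 5 wells, followed by mean, at 2.55 and 2.49 units. TA80B06 to TA80C03, with 10 wells, had means of 2.40 and 2.15 units and consisted of a lower and a higher part. Its first 5 wells lay between 1.34 and 2.19 units and its last 5 between 2.58 and 3.10.

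Of the other islands with 5 wells or more outside TA95, TA69E09 to TA69F03 (7 wells) had a mean of 2.72 units in replicate 1 and 2.15 in replicate 2. TA71F12 to TA71G06, also of 7 wells, was close to it at 2.74 and 2.09 units. TA74G10 to TA74H04, again of 7 wells, stood at 2.62 and 2.25 units. It was separated by 1 well, at 1.04 units, from the 3 wells of TA74G06 to TA74G08. TA91G06 to TA91H01 (8 wells) had means of 2.48 and 2.12 units, and TA76B09 to TA76C01 (5 wells) of 2.15 and 1.88 units. Among the 14 islands of this size, including 3 in TA95, the mean of both replicates ran from 1.70 to 3.11 units with a median of 2.39. In 13 of the 14 the highest well lay inside the run and not at its end, the exception being TA74G10. Runs of this size have more inside wells than ends, and an end borders a fall below the limit, so nothing is read from this count.

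The 11 islands of 3 or 4 wells were lower, with means from 1.13 to 2.20 units and a median of 1.74. The lowest of them, TA70F05 to TA70F07, stood at 1.13 units in each replicate and lay in the same plate as the tallest island. Across the 25 islands, length and mean went together loosely (Pearson's r of 0.44, Spearman's rho of 0.58). This is a description over runs chosen by the same ratios, and a lone well near the limit ends a run, so the measures are not independent.

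**Figure D2:**
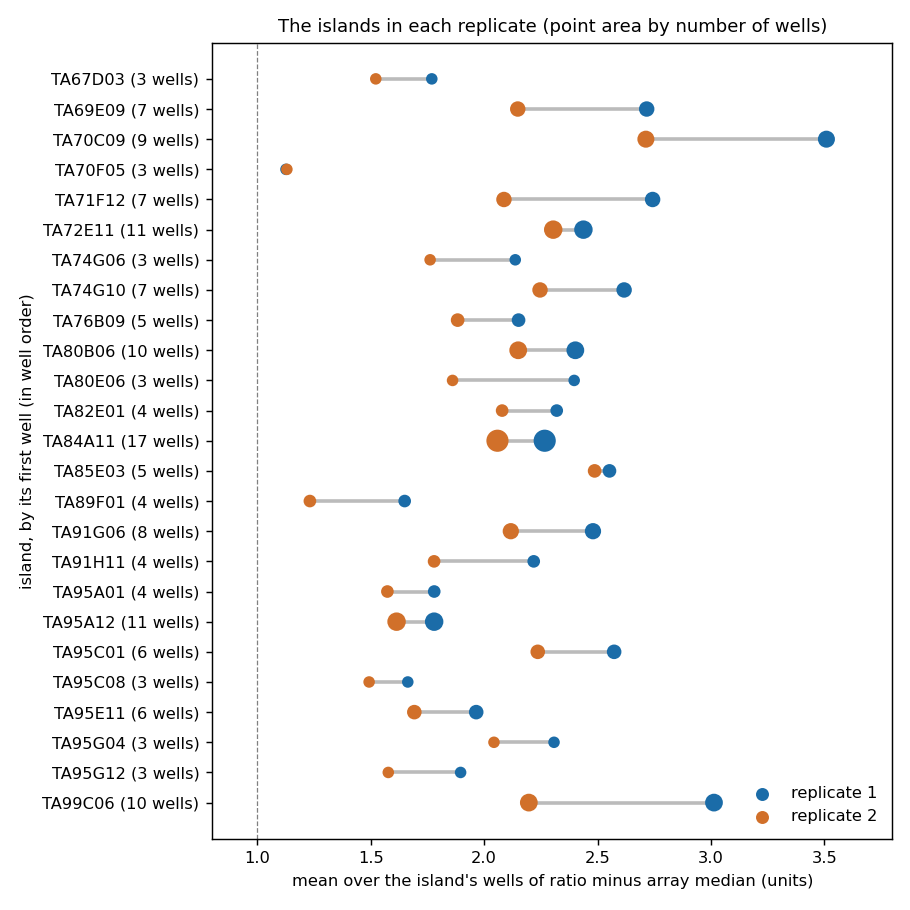
Mean ratio of each of the 25 islands in replicate 1 (blue) and replicate 2 (orange), as units above the array median, in well order, with the point area growing with the number of wells. Replicate 1 lies to the right of replicate 2 in 24 islands, by 0.82 units at most (TA99C06).

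The replicates differed in the height of the islands, whose positions both share by the way islands were defined. Replicate 1 was higher than replicate 2 in 24 of the 25 islands, with a median difference of 0.27 units. This order was not particular to the block. Over the whole array, high-ratio features had medians of 2.69 units in replicate 1 and 2.23 in replicate 2. The medians were 2.08 and 1.62 in TA01 to TA20, 1.88 and 1.58 in TB00 to TB25. In TB26 to TC13 they were 1.76 and 1.63. In TA70F05 to TA70F07 the replicates were equal to within 0.01 units. The gap was widest in TA99C06 to TA99D03 (0.82 units), TA70C09 to TA70D05 (0.80) and TA71F12 to TA71G06 (0.66). It was narrow in TA85E03 to TA85E07, at 0.07 units, which is as tall as the TA71 island. Height therefore did not fix the gap, and across islands the mean and the gap correlated at a Pearson's r of 0.58. Among the intermediate members the order was turned, with replicate 2 higher by a median of 0.09 units.

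The edges of the islands were steep. The first well inside an edge had a mean of 2.12 units in replicate 1 and 1.77 in replicate 2 (50 edges), the first well outside 0.50 and 0.41 units. Farther out it showed no steady course, with 0.15 and 0.06 units at 7 wells outside and 0.42 and 0.28 at 10. The edges were bordered by 48 different wells, since 2 wells lay between neighbouring islands, and 26 of the 48 were under 0.5 units and 22 between 0.5 and 1.5. Only 6 islands had both flanks under 0.5 units. The limit of 1 unit sets part of the step, since a well above it in both replicates would have been counted inside.

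**Figure D3:**
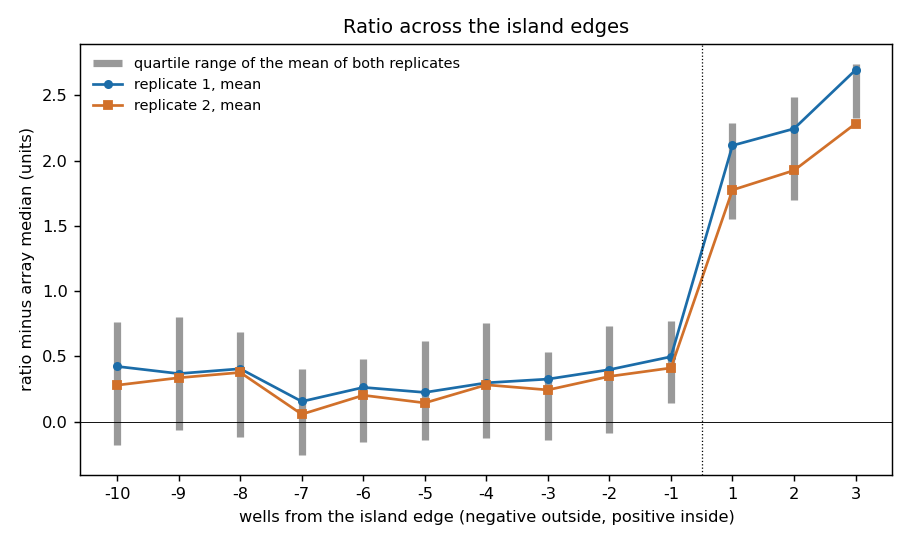
Ratio across the edges of the 25 islands, as units above the array median, by the number of wells from the edge. Points are means over edges in each replicate, grey bars the range between the quartiles of the mean of both replicates, and the dotted line the edge. The mean falls from about 2 units to under 0.5 within a well and stays above 0 for the 10 wells shown.

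Islands were unevenly spaced. From the end of an island to the start of the next there were between 1 and 389 wells, with a median of 88. Gaps of under 12 wells numbered 7, and 12 gaps were at least 96 wells, the size of a full plate. The widest gap lay between TA85E07 and TA89F01. It contained the longest stretch with no high-ratio feature at all, 197 wells from TA87A04 to TA89A08, in which the median was -0.22 units and the highest mean 0.89. Plates TA67 to TA76 held 9 islands, TA77 to TA79 none, and TA95 alone held 7. A single island, TA91H11 to TA92A02, crossed from a plate to the next.

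The 86 lone high-ratio features were spread over 30 of the 33 plates. Most were modest, with 62 under 1.5 units in the mean, but 24 reached 1.5 or more. The highest, TA74C09, had 3.07 units in replicate 1 and 2.40 in replicate 2, between neighbours at 0.27 and -0.15 units. TA84D05 stood at 3.03 and 2.32 units, between neighbours at 0.14 and 0.47. Both were as high as island wells in each replicate. The next 3 had at least 1 raised neighbour. TA95D04 lay at 2.78 and 2.45 units, TA95A10 at 2.72 and 2.49, and TA67C07 at 2.61 and 2.38. Of all lone features, 53 had a neighbour at 0.5 units or more and 33 lay between neighbours under 0.5 units.

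TA95 was unlike the other plates of the block. It held 49 high-ratio features among 96 (51.0%), 18.0% of those in the block. The 95% Wilson interval, 41.2 to 60.8, treats neighbouring features as independent. Replicate 1 gave the plate a median of 1.25 units and replicate 2 of 1.03. Without TA95 the block had 223 high-ratio features among 3070 (7.26%) and 18 islands. The raised level coincided with the plate. The last row of TA94 had medians of 0.20 and 0.11 units in replicates 1 and 2, the first row of TA95 1.19 and 0.97, the last row of TA95 0.58 and 0.84, and the first row of TA96 0.00 and -0.22. The step from TA94 to TA95, 1.08 units in the mean of both replicates, was the largest between the adjacent rows of any 2 successive plates in the block. What sets the plate apart was not tested.

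Within TA95 the ratio was not flat. Rows B and C had medians of 1.57 and 1.90 units, row D 0.45 and row H 0.68. The longest of its 7 islands, TA95A12 to TA95B10 (11 wells), had means of 1.78 units in replicate 1 and 1.61 in replicate 2. It was the lowest of the islands of 5 wells or more, with single wells from 1.11 to 2.84 units. TA95C01 to TA95C06 (6 wells) was higher, at 2.57 and 2.24 units, and TA95E11 to TA95F04 (6 wells) lay between them, at 1.96 and 1.69. With 40 intermediate features (41.7%) beside 34 of at least 1.5 units, the plate was a mixture of levels and not a continuous high stretch.

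Of the 33 plates, 10 had more than 10% high-ratio features, and these held 192 of the 272 (70.6%). After TA95 came TA74 (21.9%), TA70 (21.1%), TA84 (20.8%), TA72 and TA80 (16.7% each), TA68 (14.6%), TA99 (13.5%), TA82 (12.5%) and TA91 (11.5%). Their shares had different make-ups. In TA84, 17 of 20 high-ratio features belonged to a single island, and in TA99 10 of 13. In TA68 none of 14 did. TA83 and TA88 had no high-ratio feature (0 of 96 each, Wilson upper bound 3.85% if features were independent), and 12 plates had from 1 to 3.

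TA68 had no island but many intermediate features, interspersed with low wells. TA68G01, for example, lay at 1.02 units and TA68G02 beside it at -0.22, and the lower quartile of the plate was 0.12. The plate median was 0.47 units by replicate 1 and 0.58 by replicate 2, its highest member reached 1.78 units in the mean, and 45 of its 96 features (46.9%) were intermediate. The replicates differed over the level of the plate. In replicate 1, 15.6% of its features lay at least 1 unit above the array median, and in replicate 2 32.3%. TA94 had 31.6% intermediate features, and 6 of its 95 features passed 1 unit in replicate 1 against 19 in replicate 2. The median of TA94 had the opposite order, with 0.25 units in replicate 1 and 0.12 in replicate 2. Across the block 109 members passed 1 unit in replicate 2 only and 37 in replicate 1 only, and 33 of the 109 lay in TA68 and TA94.

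The intermediate range, set on the mean of both replicates, overlaps the high-ratio class, and 106 of the 489 intermediate features were high-ratio features. Of the other 383, 90 had a high-ratio feature directly beside them and 293 did not. The 5 plates with more than 25% intermediate features, TA68, TA74, TA86, TA94 and TA95, held 174 of them (35.6%). Runs of at least 5 wells with a mean of 0.5 units or more numbered 26, of which 17 contained an island. TA91B03 to TA91B12 was the longest without a high-ratio feature, 10 wells at 0.67 units in replicate 1 and 0.59 in replicate 2. TA68C01 to TA68C07, 7 wells at 0.66 and 0.98 units, was the other.

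**Figure D4:**
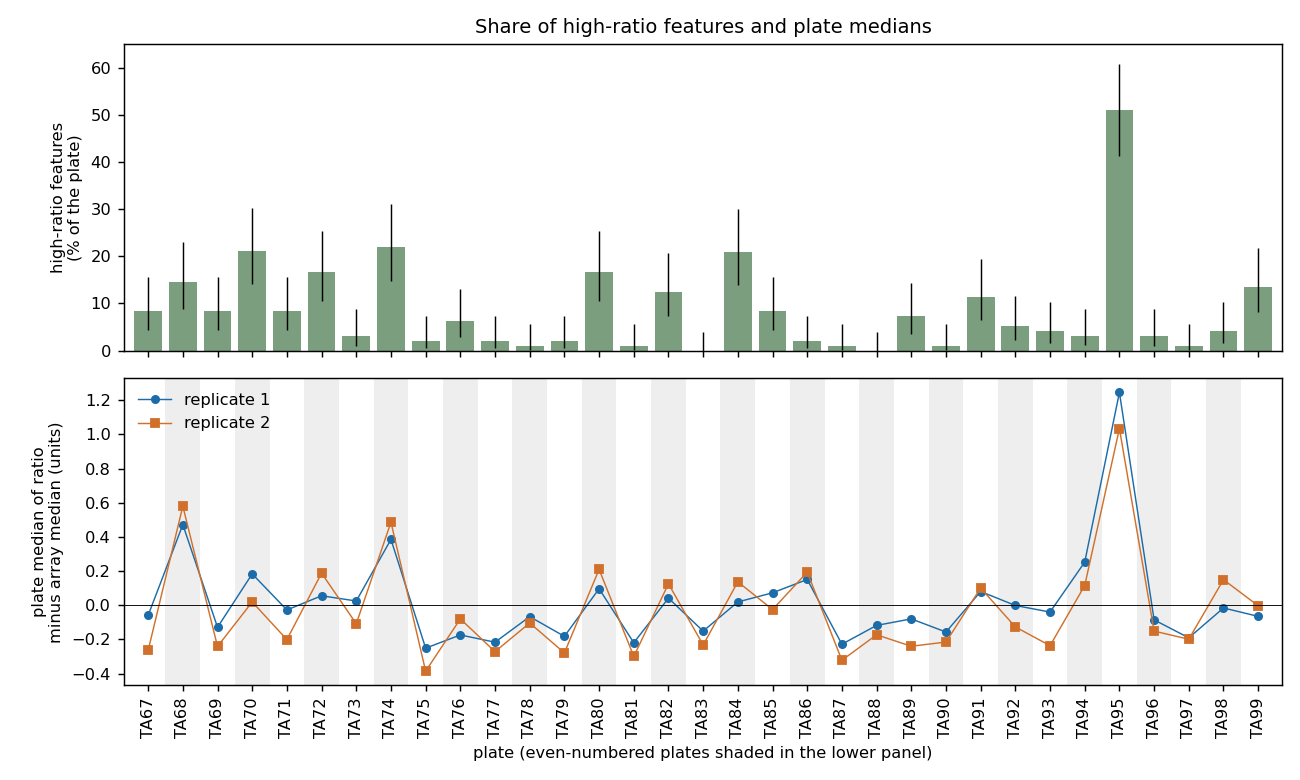
Upper panel, share of high-ratio features in each of the 33 plates, with 95% Wilson intervals as lines, which treat neighbouring features as independent. Lower panel, median ratio of each plate in replicate 1 (blue) and replicate 2 (orange), as units above the array median, with even-numbered plates shaded. TA95 reaches 51.0%, and the medians of even plates lie above those of their odd neighbours over most of the block.

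Plate medians alternated with the plate number. In the mean of both replicates, every even-numbered plate from TA67 to TA89 had a median above its odd-numbered neighbours, at 22 borders in a row. Replicate 1 alone broke this order, with TA84 (0.02 units) under TA85 (0.07) and TA88 (-0.12) under TA89 (-0.08). Over the block the even plate was the higher at 27 of 32 borders in the mean of both replicates. It was the higher at 25 in replicate 1 and at 28 in replicate 2. Pooled, even plates had medians of 0.04 and 0.06 units in replicates 1 and 2, and odd plates of -0.09 and -0.17. Intermediate features made up 19.4% of even and 11.7% of odd plates. High-ratio features came to 9.39% in even and 7.84% in odd plates, or 5.14% in odd plates without TA95. Of the islands, 10 started in even and 15 in odd plates, and 8 in odd plates without TA95. Rows on either side of a border differed by a median of 0.30 units, adjacent rows of a plate by 0.19. In TA01 to TA20 the order was mostly reversed. The even plate was the higher at only 3 of 19 borders there, with a median even minus odd of -0.13 units. It was the higher at 13 of 25 borders in TB00 to TB25 and at 51 of 86 in TB26 to TC13. The same order was thus not seen in all these parts. The split by plate number was chosen after the values were seen, and its part in the results was not tested.

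Likeness between wells had faded at 48 wells apart. Across members, a well and the next correlated at a Pearson's r of 0.66 (3163 pairs), with 0.66 in replicate 1 and 0.61 in replicate 2. The value was 0.43 at 3 wells apart, 0.21 at 8, 0.10 at 24 and 0.01 at 48. With high-ratio features left out it started at 0.40 for adjacent wells and was 0.10 at 12. The wells left in thus resembled their neighbours as well, though less. They include 383 intermediate features, and differences in level between plates were not taken out, so the value is not one for the low level alone. Wells that touch in a plate column, 12 wells on in the order, correlated at 0.16 (2768 pairs). All pairs share their arrays, and the ratios are those from which the block was drawn.

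**Figure D5:**
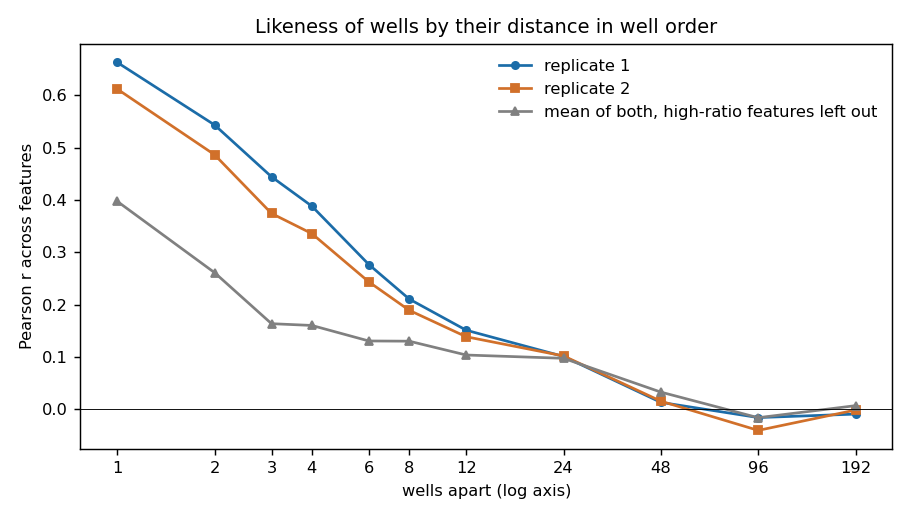
Pearson correlation across features between wells a given number of wells apart (log axis), in replicate 1 (blue), replicate 2 (orange) and, in grey, in the mean of both with high-ratio features left out. The curves fall from 0.66 and 0.61 for adjacent wells to near 0 at 48 wells.

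At the lower end, limma's fit over all 21727 features called 464 members below the array median (14.7%, against 11.7% of all features) and 721 above it (22.8%, against 28.9%). Nothing is read from these calls, since the block was drawn from the same ratios. The lowest members were TA89B06, at -1.09 units in replicate 1 and -1.20 in replicate 2, TA90F05, at -0.73 and -1.55, and TA93H01, at -0.88 and -1.25. The replicates disagreed on TA90F05 by more than on the others. Runs of 3 or more wells held 129 of the 464, and the longest such run had 7 wells. The number per plate went from 0 in TA68 to 36 in TA75. It followed the alternation of the plates, with 19.4% of the members in odd plates called below and 9.58% in even plates.

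Near the limit of 1 unit, small differences decided the class. The lower replicate value of the members just inside it was 1.0004 for TA89E07, 1.003 for TA96A01 and 1.004 for TA70F06. Just outside lay TA71E06, at 0.999 in replicate 1, TA98G09, at 0.998 in replicate 2, and TA75B05, at 0.995 in replicate 1. Over all members the replicates correlated at a Pearson's r of 0.89 across features, and at 0.76 among the 2894 that were not high-ratio features. These still include 383 intermediate features, so the 0.76 is not a value for the low level alone. Among the 464 members called below the median r was -0.08, over a range that the call itself narrows.

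Other island-bearing plates are given side by side with the block. Its 7.90 islands per 1000 features stand beside 5.75 in TA01 to TA20, 8.82 in TB00 to TB25 and 1.79 in TB26 to TC13, and 11.6 over the whole array. The median island mean was 2.16 units here and 1.90, 2.07 and 2.27 in the others. Lone features made up 31.6% of the high-ratio features here, 29.2% in TA01 to TA20, 17.2% in TB00 to TB25 and 42.9% in TB26 to TC13, against the 8.18% of the whole array given above. Intermediate features were 15.4% here, against 9.99%, 12.2% and 4.85%. No test of these differences is given, because all these blocks were delimited from the values compared.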

How the data were processed

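The data were 4 arrays of H3K9me2 IP against input DNA, 2 dye-swapped arrays for each of 2 preparations, with 15 ug per preparation given in the labels' protocols. The authors deposited 1 score per feature and array, a log-scale ratio of the channels. The labels' protocols give amplification of the DNA and direct labelling with both dyes. Of background correction, normalization, log base, direction and centring, no account is given in the sources used here. The precision is limited by the number of arrays; no intensities were used here to judge background.

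Identical dye-swap columns were averaged to 1 value per replicate and centred on the median of the 21727 measured features. Wells were ordered by plate, row and column, and a run ended at any empty well. limma 3.58.1 (R 4.3.3) fitted the mean of the replicates against 0 over all features, with Benjamini-Hochberg adjustment and a threshold of 0.05, and served as a call rule only. Its prior degrees of freedom were infinite, so all features shared an SD of 0.256 units. The scripts were tested on simulated data. Python 3.11.15, NumPy 2.4.6, pandas 2.3.3, SciPy 1.17.1 and Matplotlib 3.10.9 were used. The members, limits and lists were chosen with earlier results of these data known. Named were all islands of 5 wells or more, the 3 islands highest by mean, the 5 highest lone features, the 3 highest and lowest members, plates above 10% or at 0, members nearest the limit and the plates at the block's ends. Other items, such as TA94, the steps at plate borders and the broad runs, were singled out after their values were seen. Alternatives were other centring, quantile normalization, other limits, run lengths and limma settings, each replicate alone and, added after seeing the data, aligned plates and leaving out TA95.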

Additional observations from a re-analysis of the deposited data

How the results depend on the processing

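Without centring, the block had 68 high-ratio features, 9 islands and a longest island of 9 wells, and limma called 153 features above 0 and 2763 below. Centred on the mode, 47.2% of high-ratio features lay in islands and 131 features were called below the median. A limit of 0.5 units gave 562 high-ratio features and 58 islands. A limit of 1.5 units gave 147 high-ratio features, 72.1% of them in islands. With lone wells under the limit allowed inside a run the share in islands was 67.6%. Runs of limma calls numbered 74 and reached 26 wells. Requiring 5 wells left 14 islands with 43.8% of the high-ratio features. A threshold of 0.01 on the adjusted p left 207 calls below the median. With treat against 0.5 units there were 9 below and 394 above. On a single replicate there were 309 to 381 high-ratio features, and the longest island had 17 wells. The main rule needs both replicates, so the count could not fall below 272 nor the longest island below 17 wells. With a single replicate, islands numbered 27 to 30, the share in islands was 47.5% to 54.4%, and neighbouring wells correlated at 0.612 to 0.663. That correlation was 0.164 for the well below in the plate column and 0.535 as Spearman's rho. The replicates correlated at 0.779 by Spearman's rho and at 0.763 without high-ratio features. With every plate aligned on its lower quartile, there were 223 high-ratio features, 21 in TA95 and 202 outside it, and 18 islands. Outside TA95, even plates then had 110 and odd plates 92, against 144 and 79 before. Of 62 alternatives, 37 stayed within 1.5 times the count or within the error of the share or correlation, and 25 moved; the cause was not tested. No paired analysis was possible because there is a single group. Leaving out a replicate leaves no limma test.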
